A study of Mus musculus with 12 samples.

Results

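The genes described here are 37 genes of the unfolded protein and amino acid stress response, measured by RNA sequencing in primary cultures from the mouse subventricular zone, the neurogenic niche along the lateral ventricles of the forebrain. They were taken by name from a list and matched through GENCODE release 21 mouse symbols to the Ensembl identifiers of the deposited count table. All 37 were found among the 55401 listed genes, and all 37 were among the 16135 genes that passed the filter on low counts and were tested. The list holds 3 sensors of the endoplasmic reticulum (ER), 10 stress transcription factors and regulators, 6 enzymes of asparagine, serine and folate metabolism, 9 ER chaperones and co-chaperones, 5 protein disulfide isomerases and small luminal proteins, and 4 genes of ER-associated degradation.

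Secreted and membrane proteins fold in the ER, and unfolded chains there are sensed by the membrane proteins PERK (encoded by Eif2ak3), IRE1 (Ern1) and ATF6 (Atf6). PERK phosphorylates the initiation factor eIF2, which lowers general translation but raises translation of the transcription factor ATF4, and a kinase that responds to amino acid shortage feeds into the same branch. ATF4 drives genes of amino acid synthesis and uptake, whereas ATF6 and the XBP1 protein made after splicing by IRE1 drive chaperone and degradation genes. Oligodendrocytes make large amounts of membrane protein for myelin and are known for their sensitivity to disturbances of this pathway. Counts per gene show messenger RNA levels and hold neither Xbp1 splicing nor protein phosphorylation.

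The study compared 3 kinds of culture from CD1 mice, with 4 libraries each from 4 independent litters. Postnatal oligodendrocyte precursor cells (OPC) came from mice at postnatal day 0 to 2, whose cells first grew for 6 to 7 days as primary neurospheres. Cells of the dissociated neurospheres were then plated as a monolayer. They were kept for 2 days in serum-free medium with 2% B27, 10 ng/mL PDGF-AA and the same concentration of FGF. Adult neural stem cells (NSC) came from mice aged 2 months and grew for 6 to 7 days as neurospheres, floating clusters of dividing cells, in serum-free medium with heparin, 2% B27, EGF at 20 ng/mL and FGF at 10 ng/mL. Postnatal NSC came from mice at postnatal day 0 to 2 and were grown as neurospheres in the same way as the adult cells. Cell type, time in culture, monolayer culture, dissociation and growth factors changed together between the OPC and NSC cultures and cannot be told apart. Between OPC and adult NSC the age of the animals changed with them. The labels do not give the sex of the animals or whether animals were pooled within a litter, and they do not say how dissection or sequencing runs were shared between groups.

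The libraries held 17226501 to 23651396 counts in OPC, 16756231 to 20064043 in adult NSC and from 38928989 up to 54801726 in postnatal NSC, so that low counts are less precise in OPC and adult NSC. The OPC marker Pdgfra was at 1032 to 2496 counts scaled to library size (CPM) in OPC, at 8.14 to 15.1 CPM in adult NSC and at 154.8 to 283.7 CPM in postnatal NSC, and of 6 OPC markers 3 rose in OPC against postnatal NSC and 6 against adult NSC. The 6 stem cell markers were mixed. Their sum was 4452 to 7189 CPM in OPC, 8158 to 8835 CPM in adult NSC and 6288 to 7682 CPM in postnatal NSC. In OPC 2 of these 6 rose and 4 fell against postnatal NSC, and 3 rose and 2 fell against adult NSC. Of 6 microglial markers 1 was tested, and it rose in OPC against both other groups. Their sum was 1.14 to 1.97 CPM in OPC, 0.491 to 0.802 CPM in adult NSC and 0.175 to 0.546 CPM in postnatal NSC, with Cx3cr1 without a count in all 12 libraries. Of 5 ependymal markers 2 were tested, and both fell in OPC against both other groups. Their sum was 8.72 to 15.7 CPM in OPC, 20.4 to 22.6 CPM in adult NSC and 34.8 to 47.7 CPM in postnatal NSC, with Tmem212 without a count in all 12. Of 6 neuroblast and neuron markers 5 were tested. In OPC 3 of them rose and 1 fell against postnatal NSC, and 3 rose and 0 fell against adult NSC. In adult NSC 1 rose and 4 fell against postnatal NSC. The 6 markers summed to 81.8 to 231.4 CPM in OPC, 18.3 to 27.6 CPM in adult NSC and 47.5 to 124.2 CPM in postnatal NSC. The part of these other cell types in the results below was not tested. Summed over 6 markers each, mature oligodendrocyte genes were at 27.3 to 77.0, 15.2 to 19.5 and 34.9 to 328.3 CPM in OPC, adult NSC and postnatal NSC, and endothelial genes at 2.19 to 3.59, 14.6 to 15.1 and 4.63 to 15.8 CPM. Of the libraries, 1 OPC and 1 postnatal NSC library stood apart: 12 genes of the G1/S transition of the cell cycle summed to 483.8 CPM in postnatal OPC 2 and to 632.9 CPM in postnatal NSC 3, against 1313 to 2187 CPM in the other 10. Immediate early genes, which are switched on within minutes of a stimulus, were highest in postnatal NSC. Their sum over 10 genes was 350.6 to 388.7 CPM in OPC, 656.0 to 737.7 CPM in adult NSC and 4832 to 12990 CPM in postnatal NSC. In bulk libraries, fewer cells of a type and less RNA per cell cannot be told apart.

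OPC had lower levels of many of these stress genes than either kind of stem cell, and among the 6 roles the stress transcription factors and regulators had the lowest median log2 fold change against each. Against postnatal NSC, 16 of 37 genes fell in OPC (43.2%) and 1 rose (2.7%), by edgeR's quasi-likelihood test at a Benjamini-Hochberg adjusted p under 0.05, while 22.7% of all tested genes fell and 22.4% rose (45.1% in either direction). The median log2 fold change was -0.25 over the 37 genes and -0.008 over all tested genes. All 4 OPC libraries were below all 4 postnatal NSC libraries for 13 genes and above them for 1, where the shares over all tested genes were 16.9% and 18%. The gene that rose was Sel1l, the scaffold of the ubiquitin ligase complex of ER-associated degradation.

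Against adult NSC, 22 of the 37 genes fell in OPC (59.5%) and 3 rose (8.11%), while 24.7% of all tested genes fell and 26.3% rose (51% in either direction). The median log2 fold change was -0.45 over the 37 genes and 0.006 over all tested genes. The genes that rose were Sel1l, the ER chaperone cofactor Sdf2l1 and the sensor gene Ern1. All 4 OPC libraries were below all 4 adult NSC libraries for 26 genes and above them for 4, with 28.7% and 27.9% over all tested genes.

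Adult NSC differed from postnatal NSC in both directions, with 19 of 37 genes called, a share near the 53.1% of all tested genes. In adult NSC 12 of 37 genes rose (32.4%) and 7 fell (18.9%), while 25.2% of all tested genes rose and 27.9% fell (53.1% in either direction). The median log2 fold change was 0.09 over the 37 genes and -0.03 over all tested genes. For 13 genes the adult libraries all exceeded those of postnatal NSC, and for 7 genes they were all lower, with 27.2% and 26% over all tested genes. Without the library postnatal NSC 2 the number of genes that rose in adult NSC was 6 in place of 12. Over all tested genes the number that rose was then 3167 of 16370, in place of 4065 of 16135. The calls of Xbp1, Mthfd2, Hsp90b1, Dnajc3, Pdia4 and Edem1 were then lost. Each pair of these comparisons shares the libraries of 1 group, so their results are not independent of each other.

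**Figure D1:**
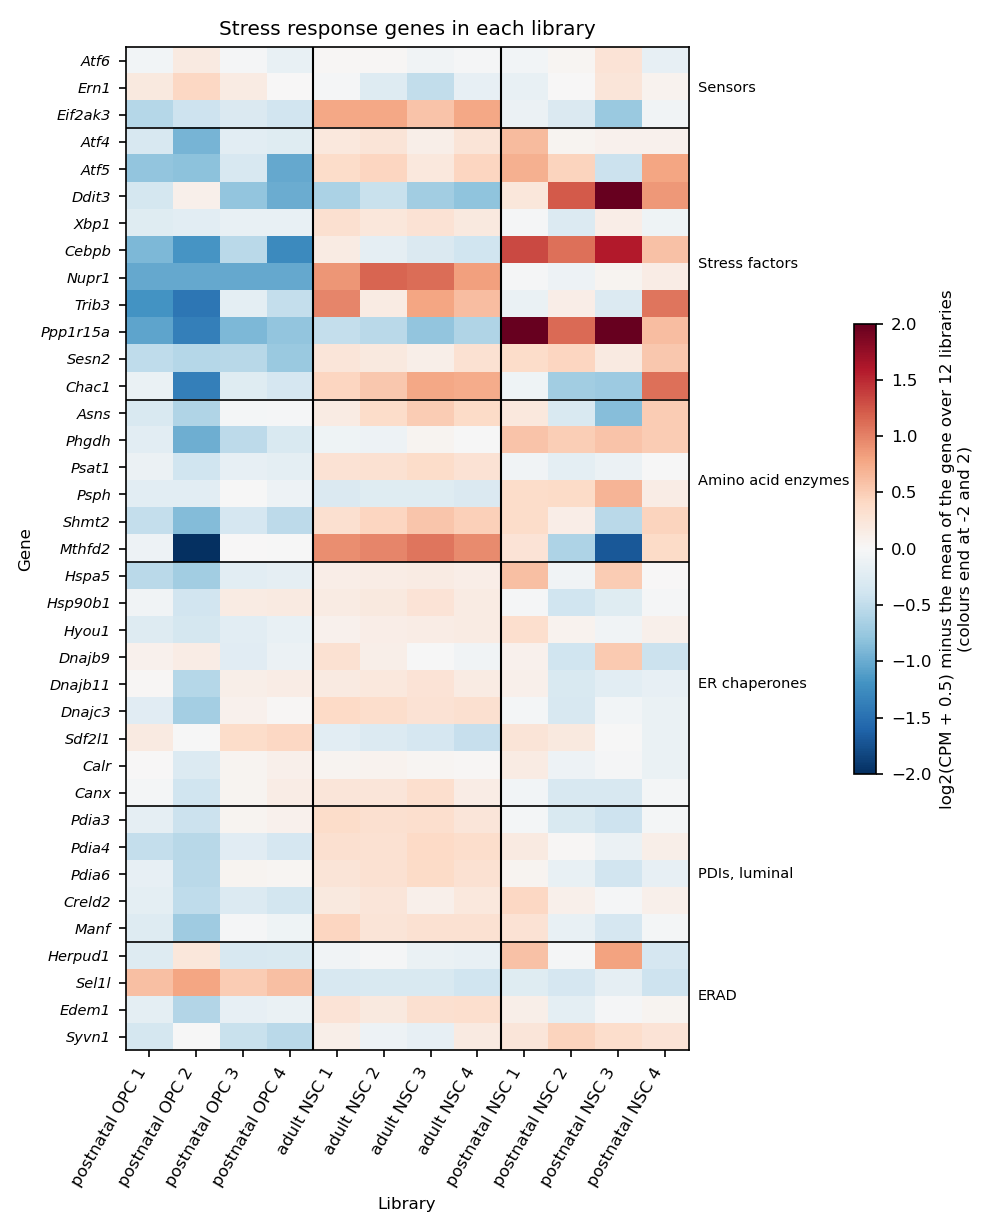
Levels of the 37 genes (rows, grouped by role) in the 12 libraries (columns, OPC, adult NSC and postnatal NSC from left). Colour gives log2(CPM + 0.5) minus the mean of the gene over the 12 libraries, red above and blue below, with colours ending at -2 and 2. The block of stress factors was mostly blue in OPC, and Ddit3, Cebpb and Ppp1r15a were reddest in postnatal NSC.

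**Figure D2:**
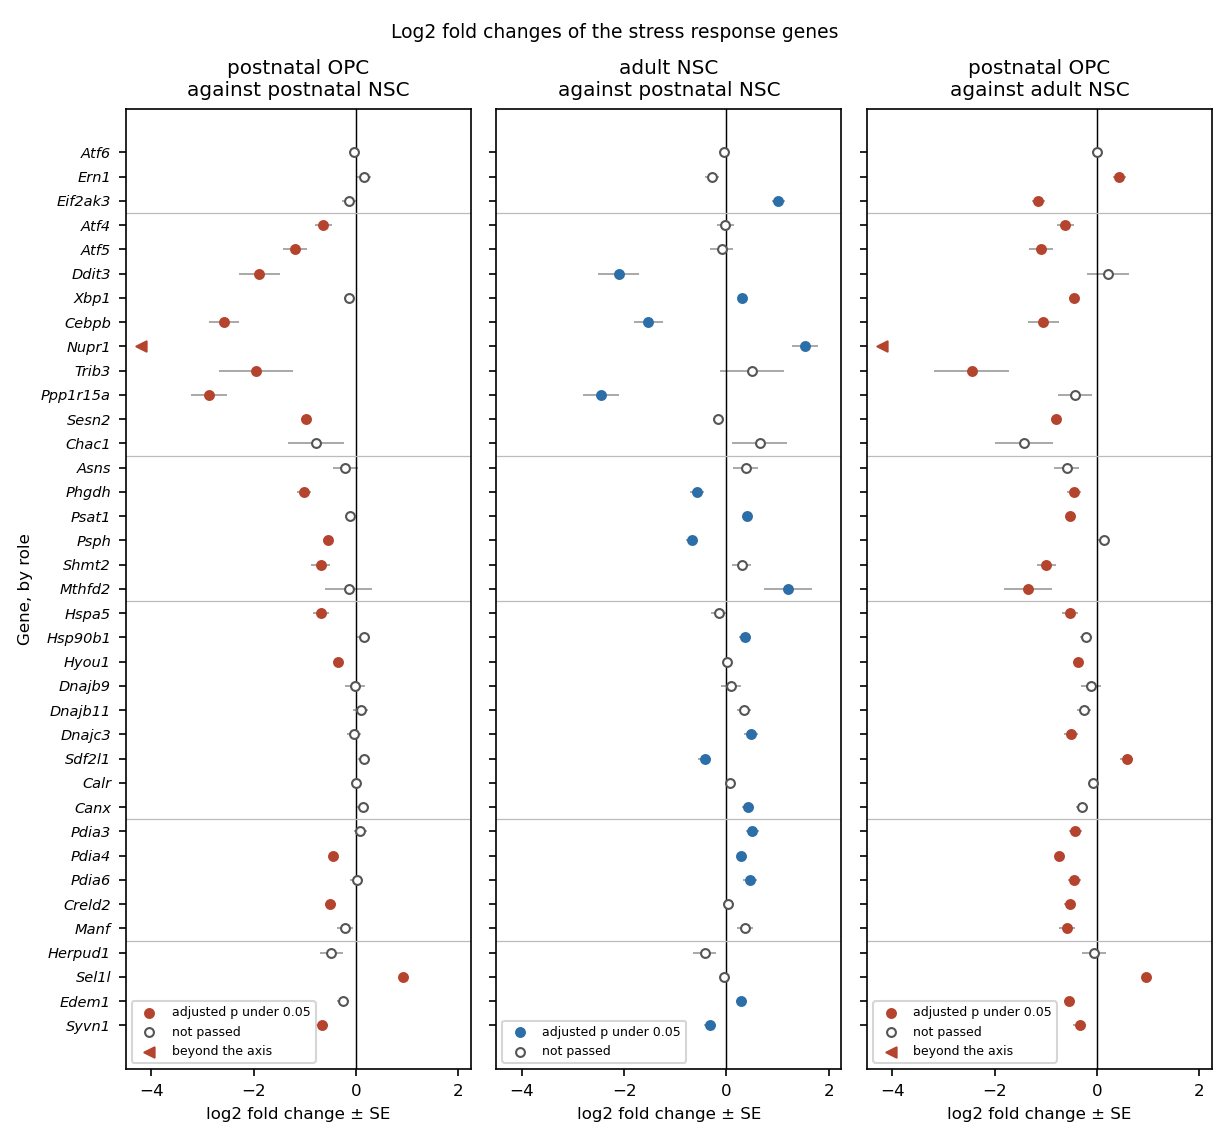
Log2 fold change with its standard error (x axis) for each of the 37 genes (y axis, by role) in the 3 comparisons, from edgeR. Filled points passed an adjusted p under 0.05, open points did not, and triangles mark Nupr1, which had no count in OPC and lies beyond the axis. In OPC against adult NSC 22 filled points or triangles lay below 0 and 3 above it.

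Among the 3 sensors the PERK gene Eif2ak3 was highest in adult NSC. Eif2ak3 (GRCm38 chr6:70844515-70905245, plus strand) was at 52.1, 57.7, 62.9 and 59.0 CPM in OPC 1 to 4, at 132.1, 133.2, 114.9 and 133.2 CPM in adult NSC 1 to 4, and at 71.5, 63.2, 46.2 and 73.3 CPM in postnatal NSC 1 to 4. All adult NSC libraries were above all libraries of the other groups, and OPC and postnatal NSC overlapped. It rose 2.02-fold in adult NSC against postnatal NSC (log2 fold change 1.01 ± 0.13 SE, edgeR adjusted p = 8.85e-05), and in OPC it fell by 1.15 ± 0.13 on the log2 scale against adult NSC (edgeR adjusted p = 1.96e-05). Against postnatal NSC its log2 fold change in OPC was -0.13 ± 0.13 (edgeR adjusted p = 0.419), and without postnatal NSC 3 it passed the test at an adjusted p of 0.0263. A stretch of 8.0% of its exonic bases overlaps Gm43292 on the other strand, and the strand setting of the counting was not given in the sources used here.

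The IRE1 gene Ern1 (chr11:106394650-106487852, minus strand) was at 16.2, 18.9, 15.9 and 14.2 CPM in OPC, at 13.9, 11.7, 9.91 and 12.5 CPM in adult NSC, and at 12.7, 14.2, 16.7 and 14.8 CPM in postnatal NSC. Every OPC library was above every adult NSC library, by a narrow gap, and postnatal NSC overlapped with both other groups. Ern1 rose 1.36-fold in OPC against adult NSC (edgeR adjusted p = 0.0169), a call that was lost without adult NSC 3 (0.0582). Its log2 fold change was -0.28 ± 0.14 in adult NSC against postnatal NSC (edgeR adjusted p = 0.0955), which passed the test without postnatal NSC 1 or without postnatal OPC 2. Atf6 (chr1:170704674-170867771, minus strand), the gene of the third sensor, was at 52.2, 61.8, 53.6 and 48.8 CPM in OPC, at 55.3, 55.4, 51.7 and 53.1 CPM in adult NSC, and at 52.0, 55.6, 65.9 and 48.4 CPM in postnatal NSC. The 3 groups overlapped, and the largest of the 3 log2 differences was -0.04 ± 0.10 (edgeR adjusted p = 0.754).

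Most of the 10 stress transcription factors and regulators fell in OPC. In OPC 8 of 10 fell (80%, against 22.7% of all tested genes) and 0 rose against postnatal NSC (median log2 fold change -1.54), and 7 fell (70%, against 24.7%) and 0 rose against adult NSC (median -0.93). Ppp1r15a, Ddit3 and Chac1 did not pass against adult NSC, and the log2 fold change of Ddit3 was above 0 there. Here and in the roles below, each count of 0 by edgeR was also 0 at an unadjusted p under 0.05 and by DESeq2. In adult NSC 2 rose (20%, against 25.2% of all tested genes) and 3 fell (30%, against 27.9%) against postnatal NSC (median -0.05). The mean log2 CPM over the 10 genes was 1.90 to 2.59 in OPC libraries, 3.54 to 3.65 in adult NSC libraries and 3.66 to 3.96 in postnatal NSC libraries, without overlap between the groups. Postnatal OPC 2, 1 of the 2 libraries with low G1/S genes, was the lowest of the 12.

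Atf4 (chr15:80255184-80257541, plus strand), the central factor of the branch, was at 137.1, 89.5, 147.4 and 144.5 CPM in OPC, at 198.1, 205.6, 186.7 and 204.8 CPM in adult NSC, and at 266.1, 177.7, 181.6 and 180.8 CPM in postnatal NSC. All OPC libraries were below all stem cell libraries, and both kinds of stem cells overlapped. In OPC it fell 1.56-fold against postnatal NSC (log2 fold change -0.64 ± 0.16, edgeR adjusted p = 0.00732) and 1.53-fold against adult NSC (-0.62 ± 0.16, edgeR adjusted p = 0.00766). The log2 fold change of adult NSC against postnatal NSC was -0.02 ± 0.16 (edgeR adjusted p = 0.926). Per transcript length, Atf4 was the most abundant of the 10 genes in each group, at 149.4 ± 28.5 TPM (length-scaled counts) in OPC, 229.8 ± 9.98 TPM in adult NSC and 237.9 ± 51.5 TPM in postnatal NSC (SD, n = 4 each).

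Atf5 (chr7:44812256-44816658, minus strand), a relative of Atf4 with stress-controlled translation, was at 15.25, 14.96, 21.3 and 12.8 CPM in OPC, at 34.4, 36.0, 31.0 and 36.3 CPM in adult NSC, and at 43.8, 36.6, 19.7 and 46.3 CPM in postnatal NSC. OPC lay below adult NSC throughout and overlapped with postnatal NSC only through postnatal NSC 3, which was below OPC 3. In OPC Atf5 fell 2.28-fold against postnatal NSC (log2 fold change -1.19 ± 0.23, edgeR adjusted p = 0.0014) and 2.14-fold against adult NSC (-1.10 ± 0.23, edgeR adjusted p = 0.00191). Sesn2, which encodes sestrin 2, an ATF4 target that restrains growth signalling, fell by 0.98 ± 0.09 against postnatal NSC and by 0.81 ± 0.09 against adult NSC on the log2 scale in OPC (edgeR adjusted p = 7.42e-06 and 1.34e-05). Exons of Atf5 overlap Il4i1 and Nup62 on the other strand over 8.2% of their bases.

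Ppp1r15a, Ddit3 and Cebpb had their highest means in postnatal NSC. Ppp1r15a (chr7:45522916-45526268, minus strand) encodes GADD34, the stress-induced subunit that directs a phosphatase to eIF2. It was at 17.04, 13.66, 19.0 and 20.6 CPM in OPC, at 25.8, 24.6, 20.6 and 23.6 CPM in adult NSC, and at 171.3, 79.8, 209.3 and 55.3 CPM in postnatal NSC. Postnatal NSC lay above both other groups and spread widely, with libraries 1 and 3 high. Ppp1r15a fell 7.34-fold in OPC (log2 fold change -2.88 ± 0.35, edgeR adjusted p = 6.30e-05) and 5.45-fold in adult NSC (-2.45 ± 0.35, edgeR adjusted p = 0.000177), each against postnatal NSC. Between OPC and adult NSC its log2 fold change was -0.43 ± 0.34 (edgeR adjusted p = 0.313), which passed in a pairwise fit of these 2 groups alone.

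Ddit3 (chr10:127290774-127296288, plus strand) encodes CHOP, a factor known for promoting death of cells under lasting ER stress. It was at 5.32, 7.50, 3.80 and 3.22 CPM in OPC, at 4.31, 4.94, 4.11 and 3.76 CPM in adult NSC, and at 8.17, 16.9, 35.9 and 13.0 CPM in postnatal NSC. The highest value by far was that of postnatal NSC 3, and postnatal NSC 1 was just above OPC 2. Ddit3 fell 3.71-fold in OPC (log2 fold change -1.89 ± 0.40, edgeR adjusted p = 0.00236) and 4.31-fold in adult NSC (-2.11 ± 0.41, edgeR adjusted p = 0.00118), each against postnatal NSC. With the level of the Y-linked gene Ddx3y as a covariate the fall in OPC was 1.25 on the log2 scale. Between OPC and adult NSC the log2 fold change was 0.22 ± 0.41 (edgeR adjusted p = 0.682).

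Cebpb (chr2:167688915-167690418, plus strand), a transcription factor that dimerises with CHOP and ATF4, was at 1.16, 0.86, 1.61 and 0.77 CPM in OPC, at 2.95, 2.23, 2.03 and 1.85 CPM in adult NSC, and at 7.20, 6.09, 8.77 and 4.13 CPM in postnatal NSC. The 3 groups did not overlap and stood in the order OPC, adult NSC, postnatal NSC. Cebpb fell 5.98-fold in OPC (log2 fold change -2.58 ± 0.30, edgeR adjusted p = 4.12e-05) and 2.88-fold in adult NSC (-1.53 ± 0.28, edgeR adjusted p = 0.0009) against postnatal NSC, and 2.08-fold in OPC against adult NSC (-1.05 ± 0.30, edgeR adjusted p = 0.0117). Exons of Cebpb overlap Tmem189 on the other strand over 20.7% of their bases, so its counts are uncertain. Beside these 3 genes, 9 of 10 immediate early genes fell in OPC against postnatal NSC (90%, against 22.7% of all tested genes). In adult NSC 10 of 10 fell against postnatal NSC (100%, against 27.9%), and 5 of 10 fell in OPC against adult NSC (50%, against 24.7%). The part of immediate early activity in the levels of Ppp1r15a, Ddit3 and Cebpb was not tested.

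Nupr1 (chr7:126623249-126630861, minus strand), a small stress-induced chromatin protein, had no count in any OPC library. It was at 1.36, 1.77, 1.69 and 1.29 CPM in adult NSC and at 0.50, 0.44, 0.55 and 0.62 CPM in postnatal NSC, from 110 and 92 counts summed over the 4 libraries. At a floor of 3 counts summed over the 4 OPC libraries, Nupr1 was at least 42.7-fold lower in OPC than in adult NSC and at least 14.4-fold lower than in postnatal NSC. It rose 2.90-fold in adult NSC against postnatal NSC (log2 fold change 1.54 ± 0.26, edgeR adjusted p = 0.00103).

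Trib3 (chr2:152337422-152344032, minus strand), a pseudokinase induced by ATF4 and CHOP, was at 0.10, 0, 0.69 and 0.48 CPM in OPC, at 2.18, 1.04, 1.86 and 1.60 CPM in adult NSC, and at 0.74, 1.00, 0.63 and 2.36 CPM in postnatal NSC. OPC lay below adult NSC, and OPC 3 overlapped with postnatal NSC. In OPC it fell by 2.45 ± 0.74 on the log2 scale against adult NSC (edgeR adjusted p = 0.0147). Its fall of 1.95 ± 0.72 against postnatal NSC passed at an edgeR adjusted p of 0.043. Of 20 alternatives 12 lost it (adjusted p 0.0226 to 0.115 over the edgeR fits). Those 12 include leaving out any 1 adult NSC library, postnatal NSC 2 or 4, or OPC 1, 2 or 4, and without OPC 3 the fall was 2.64.

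Xbp1 and Chac1 complete this group. Xbp1 (chr11:5520659-5525893, plus strand) was at 33.4, 34.2, 35.6 and 35.5 CPM in OPC, at 49.4, 46.3, 48.4 and 45.2 CPM in adult NSC, and at 38.8, 32.8, 43.5 and 37.3 CPM in postnatal NSC. All adult NSC libraries were above all others, and the groups from postnatal mice overlapped. In adult NSC it rose 1.24-fold against postnatal NSC (log2 fold change 0.31 ± 0.09, edgeR adjusted p = 0.0108, and 0.0633 without postnatal NSC 2), and in OPC it fell 1.37-fold against adult NSC (-0.45 ± 0.09, edgeR adjusted p = 0.00124). Its log2 fold change of -0.14 ± 0.09 in OPC against postnatal NSC (edgeR adjusted p = 0.23) passed the test only without postnatal NSC 2 (0.0438) among 20 alternatives. Chac1, which encodes a glutathione-degrading enzyme under ATF4 control, passed in no comparison, and its log2 fold change was -1.43 ± 0.57 in OPC against adult NSC (edgeR adjusted p = 0.051). That value passed under 7 of 20 alternatives, among them DESeq2, the pairwise fit, the Ddx3y covariate and leaving out postnatal NSC 2, 3 or 4, and Chac1 also passed in adult NSC against postnatal NSC once postnatal NSC 4 was left out, with a log2 fold change of 1.41 in place of 0.65.

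**Figure D3:**
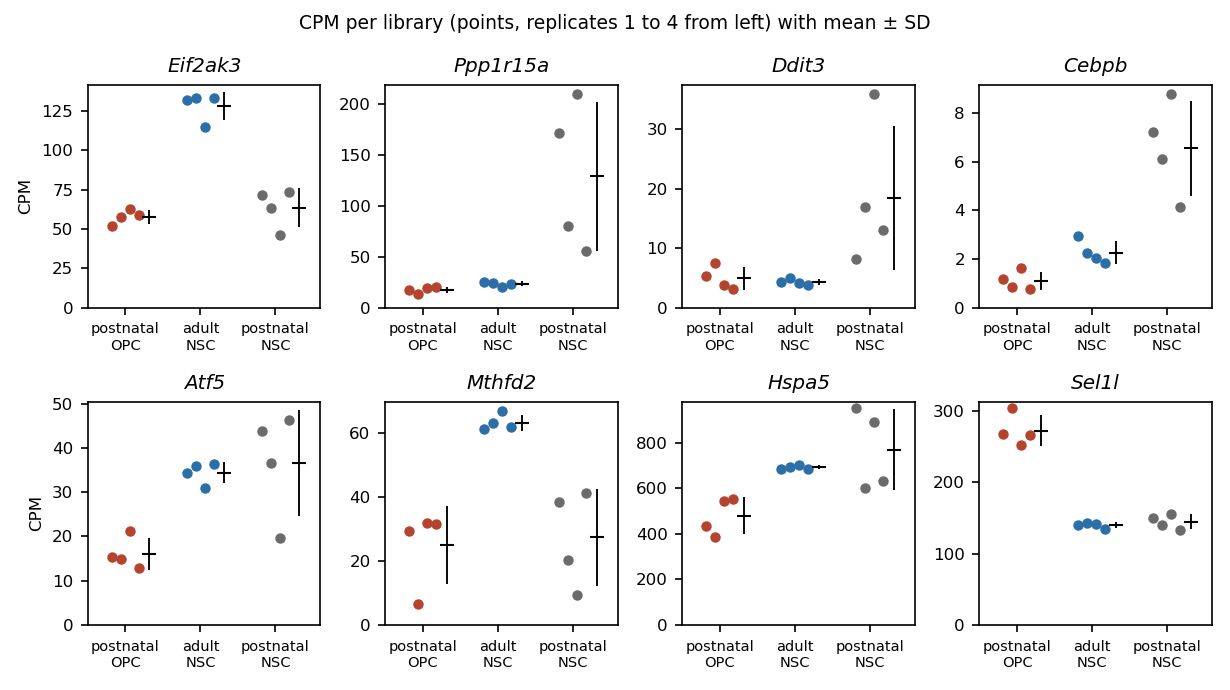
CPM of 8 genes in each library (points, replicates 1 to 4 from left within a group) with the mean and SD of the 4 libraries (black). Axes start at 0. Eif2ak3 and Mthfd2 were highest in adult NSC, Ppp1r15a, Ddit3 and Cebpb in postnatal NSC, and Sel1l in OPC.

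The 6 biosynthetic enzymes fell or missed the threshold in OPC. Against postnatal NSC 3 of 6 fell (50%, against 22.7% of all tested genes) and 0 rose in OPC (median log2 fold change -0.38), and against adult NSC 4 fell (66.7%, against 24.7%) and 0 rose (median -0.56). In adult NSC 2 rose and 2 fell against postnatal NSC (33.3% each, against 25.2% and 27.9%; median 0.34). Phgdh (chr3:98313170-98339990, minus strand) encodes the first enzyme of serine synthesis from a glycolytic intermediate. It was at 251.4, 147.7, 200.6 and 233.3 CPM in OPC, at 273.2, 270.9, 301.5 and 288.0 CPM in adult NSC, and at 432.0, 406.0, 431.7 and 414.3 CPM in postnatal NSC. The groups did not overlap, with OPC lowest and OPC 2 the lowest library. In OPC Phgdh fell 2.02-fold against postnatal NSC (log2 fold change -1.02 ± 0.13, edgeR adjusted p = 9.50e-05) and by 0.44 ± 0.13 on the log2 scale against adult NSC (edgeR adjusted p = 0.0138). In adult NSC it fell by 0.57 ± 0.13 against postnatal NSC (edgeR adjusted p = 0.00343). Of its stretches of 50 bases 47.8% also occur in Gm7901, so its counts are uncertain.

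The other steps of serine synthesis did not follow the same order. Psat1, the transaminase of the second step, rose by 0.41 ± 0.08 in adult NSC against postnatal NSC and fell by 0.53 ± 0.08 in OPC against adult NSC on the log2 scale (edgeR adjusted p = 0.00101 and 0.000137), and its log2 fold change in OPC against postnatal NSC was -0.12 ± 0.08. Psph, the phosphatase of the last step, fell in OPC by 0.54 ± 0.10 and in adult NSC by 0.68 ± 0.10 against postnatal NSC (edgeR adjusted p = 0.00122 and 0.000297), and exons of Psph overlap Cct6a on the other strand over 10.4% of their bases. Asns (chr6:7675169-7693254, minus strand), asparagine synthetase, was at 32.1, 26.2, 39.0 and 39.2 CPM in OPC, at 44.5, 51.4, 56.9 and 51.9 CPM in adult NSC, and at 46.5, 32.3, 21.9 and 56.8 CPM in postnatal NSC. OPC lay below adult NSC throughout, while postnatal NSC spread across both. Asns passed in no comparison, and its log2 fold change in OPC against adult NSC was -0.59 ± 0.24 (edgeR adjusted p = 0.06). It passed under 6 of 20 alternatives: the pairwise fit, equal depth, the Ddx3y covariate, and leaving out postnatal NSC 3, postnatal NSC 4 or both libraries low in G1/S genes.

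The 2 mitochondrial folate enzymes among the 37 genes fell in OPC against adult NSC. Mthfd2 (chr6:83305691-83325908, minus strand) was at 29.4, 6.65, 31.9 and 31.5 CPM in OPC, at 61.1, 63.0, 66.7 and 61.7 CPM in adult NSC, and at 38.3, 20.4, 9.42 and 41.3 CPM in postnatal NSC. Adult NSC lay above both other groups, and the lowest values were those of OPC 2 and postnatal NSC 3, the libraries with low G1/S genes. In adult NSC it rose by 1.21 ± 0.47 on the log2 scale against postnatal NSC (edgeR adjusted p = 0.0453), and in OPC it fell by 1.35 ± 0.47 against adult NSC (edgeR adjusted p = 0.0308). The rise was lost under 10 of 20 alternatives (adjusted p 0.00167 to 0.122 over the edgeR fits). Those 10 were the Ddx3y covariate and leaving out postnatal NSC 2 or 3, any 1 adult NSC library or OPC 1, 3 or 4. The fall was lost without any 1 adult NSC library or OPC 1 (adjusted p 8.35e-04 to 0.0594 over the edgeR fits). Without both low G1/S libraries each of these calls held. Shmt2, which feeds serine carbon into mitochondrial folate, fell in OPC by 0.69 ± 0.18 against postnatal NSC and by 0.99 ± 0.18 against adult NSC (edgeR adjusted p = 0.00821 and 0.000736), and its log2 fold change in adult NSC against postnatal NSC was 0.30 ± 0.18 (edgeR adjusted p = 0.177).

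Of the 9 ER chaperones, 2 fell in OPC against postnatal NSC (22.2%, near the 22.7% of all tested genes). None of the 9 rose (0%, against 22.4%), and the median log2 fold change was -0.001. The share called was thus below the 45.1% of all tested genes called in either direction. Against adult NSC 3 fell (33.3%, against 24.7%) and 1 rose in OPC (11.1%, against 26.3%; median -0.25). In adult NSC 3 rose (33.3%, against 25.2%) and 1 fell (11.1%, against 27.9%) against postnatal NSC (median 0.09). Hspa5 (chr2:34771970-34777547, plus strand) encodes BiP, the main ER chaperone, which also holds the sensors inactive. It was at 434.2, 387.0, 544.5 and 553.4 CPM in OPC, at 686.7, 693.7, 704.0 and 685.6 CPM in adult NSC, and at 951.4, 600.0, 891.5 and 633.3 CPM in postnatal NSC. All OPC libraries were below all stem cell libraries, and adult NSC lay within the spread of postnatal NSC, whose libraries 1 and 3 were high as for Ppp1r15a. In OPC Hspa5 fell 1.60-fold against postnatal NSC (log2 fold change -0.68 ± 0.16, edgeR adjusted p = 0.00411) and 1.44-fold against adult NSC (-0.53 ± 0.16, edgeR adjusted p = 0.0144). In adult NSC its log2 fold change against postnatal NSC was -0.15 ± 0.16 (edgeR adjusted p = 0.435).

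Hyou1, an ER member of the HSP110 family that acts with BiP, fell in OPC by 0.36 ± 0.09 against postnatal NSC and by 0.37 ± 0.09 against adult NSC (edgeR adjusted p = 0.00488 and 0.00318). Dnajc3, a co-chaperone that restrains PERK, rose by 0.47 ± 0.14 in adult NSC against postnatal NSC (edgeR adjusted p = 0.012, and 0.0577 without postnatal NSC 2) and fell by 0.51 ± 0.14 in OPC against adult NSC (edgeR adjusted p = 0.00817). The lectin chaperone gene Canx and the ER HSP90 gene Hsp90b1 rose by 0.42 ± 0.12 and 0.37 ± 0.13 in adult NSC against postnatal NSC (edgeR adjusted p = 0.00931 and 0.0272). The call of Hsp90b1 was lost without postnatal NSC 2 or 3, adult NSC 2 or 3, or OPC 1, and its exons overlap 1810014B01Rik on the other strand over 10.3% of their bases. Sdf2l1, which keeps BiP substrates soluble, went the other way: it fell by 0.42 ± 0.13 in adult NSC against postnatal NSC (edgeR adjusted p = 0.0151, and 0.0515 without adult NSC 4) and rose by 0.58 ± 0.13 in OPC against adult NSC (edgeR adjusted p = 0.0025). Calr, Dnajb9 and Dnajb11 passed in no comparison, with log2 fold changes between -0.25 and 0.34. Dnajb11 passed in adult NSC against postnatal NSC under 5 of 20 alternatives, among them the pairwise fit and leaving out postnatal NSC 1, OPC 2 or both libraries low in G1/S genes. Canx passed in OPC against adult NSC under 3: the Ddx3y covariate and leaving out postnatal NSC 3 or OPC 4.

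Per transcript length, calreticulin (Calr), a lectin chaperone that binds calcium, was the most abundant of the 37 genes in each group, at 693.3 ± 61.3 TPM in OPC, 728.4 ± 16.6 TPM in adult NSC and 709.0 ± 69.3 TPM in postnatal NSC (SD, n = 4 each). Hspa5 averaged 308.7 ± 47.1 TPM in OPC, 446.6 ± 15.8 TPM in adult NSC and 506.5 ± 120.8 TPM in postnatal NSC. Hsp90b1 averaged 422.7 ± 64.3, 491.0 ± 28.5 and 388.7 ± 47.9 TPM in OPC, adult NSC and postnatal NSC. The mean of Hspa5 was thus below that of Hsp90b1 in OPC and adult NSC and above it in postnatal NSC. Canx averaged 349.1 ± 46.1 TPM in OPC, above the mean of Hspa5. These genes were measured in the same libraries, so the SD between libraries does not measure differences between genes. Such differences were not tested.

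The 5 protein disulfide isomerases and small luminal proteins all fell in OPC against adult NSC (100%, against 24.7% of all tested genes; median log2 fold change -0.53). In adult NSC 3 of 5 rose (60%, against 25.2%) and 0 fell against postnatal NSC (median 0.37). In OPC 2 fell (40%, against 22.7%) and 0 rose against postnatal NSC (median -0.21), and the values of the 5 lay on both sides of 0. Pdia4, a disulfide isomerase, was at 118.8 to 149.6 CPM in OPC, at 215.7 to 230.9 CPM in adult NSC and at 161.3 to 198.1 CPM in postnatal NSC, without overlap. In OPC it fell by 0.74 ± 0.09 against adult NSC and by 0.44 ± 0.09 against postnatal NSC on the log2 scale (edgeR adjusted p = 3.07e-05 and 0.00156). In adult NSC it rose by 0.29 ± 0.09 against postnatal NSC (edgeR adjusted p = 0.0143), a call lost without postnatal NSC 2 and without the filter on low counts. Pdia3 and Pdia6, of the same enzyme family, rose in adult NSC by 0.51 ± 0.12 and 0.46 ± 0.13 against postnatal NSC (edgeR adjusted p = 0.00408 and 0.00932). Their log2 fold changes in OPC against postnatal NSC were 0.09 ± 0.12 and 0.02 ± 0.13 (edgeR adjusted p = 0.578 and 0.915). Creld2, an ER protein with disulfide isomerase activity, fell in OPC by 0.50 ± 0.11 against postnatal NSC (edgeR adjusted p = 0.00249). Manf, an ER stress-induced trophic factor, had a log2 fold change of 0.37 ± 0.15 in adult NSC against postnatal NSC (edgeR adjusted p = 0.0583), which passed under 4 of 20 alternatives: the pairwise fit and leaving out postnatal NSC 1, OPC 2 or both libraries low in G1/S genes.

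Of 4 ER-associated degradation genes, 1 rose and 1 fell in OPC against postnatal NSC (25% each, against 22.4% and 22.7% of all tested genes). Against adult NSC 1 rose (25%, against 26.3%) and 2 fell (50%, against 24.7%) in OPC. In adult NSC 1 rose and 1 fell against postnatal NSC (25% each, against 25.2% and 27.9%). Apart from the falls against adult NSC, these shares were near those over all tested genes. Sel1l (chr12:91806043-91849157, minus strand), chosen for display after its values were seen, was at 266.8, 303.7, 251.3 and 266.2 CPM in OPC, at 140.5, 143.2, 141.7 and 133.6 CPM in adult NSC, and at 149.3, 139.5, 155.9 and 132.4 CPM in postnatal NSC. All OPC libraries were far above all others, and both kinds of stem cells overlapped. In OPC Sel1l rose 1.89-fold against postnatal NSC (log2 fold change 0.92 ± 0.08, edgeR adjusted p = 6.15e-06) and 1.95-fold against adult NSC (0.96 ± 0.08, edgeR adjusted p = 1.50e-06). Syvn1, which encodes HRD1, the ligase that Sel1l protein holds, fell in OPC by 0.66 ± 0.12 and in adult NSC by 0.32 ± 0.12 against postnatal NSC (edgeR adjusted p = 0.000974 and 0.0419). In OPC against adult NSC it fell by 0.34 ± 0.12 (edgeR adjusted p = 0.0345). The call of Syvn1 in adult NSC was lost under 7 of 20 alternatives, among them leaving out postnatal NSC 2 or 3 or adult NSC 1, 2 or 3. That in OPC against adult NSC was lost under 7, among them the pairwise fit and leaving out adult NSC 1 or 4 or OPC 1, 3 or 4.

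Edem1, a lectin that extracts misfolded glycoproteins, rose by 0.29 ± 0.11 in adult NSC against postnatal NSC (edgeR adjusted p = 0.0385) and fell by 0.54 ± 0.11 in OPC against adult NSC (edgeR adjusted p = 0.00139). The rise was lost under 9 of 20 alternatives (adjusted p 0.0153 to 0.181 over the edgeR fits). Among those 9 were no filter on low counts and leaving out postnatal NSC 2, 3 or 4, adult NSC 1, 3 or 4, or OPC 1. In OPC against postnatal NSC its log2 fold change was -0.25 ± 0.11 (edgeR adjusted p = 0.0791), which passed under 2 of 20 alternatives, 1 of them without postnatal NSC 2. Herpud1, a membrane protein that organises the ligase complex, passed in no comparison, with log2 fold changes of -0.48 ± 0.22 in OPC and -0.42 ± 0.23 in adult NSC against postnatal NSC. Without postnatal NSC 4 both values passed, and without OPC 2 that in OPC passed.

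**Figure D4:**
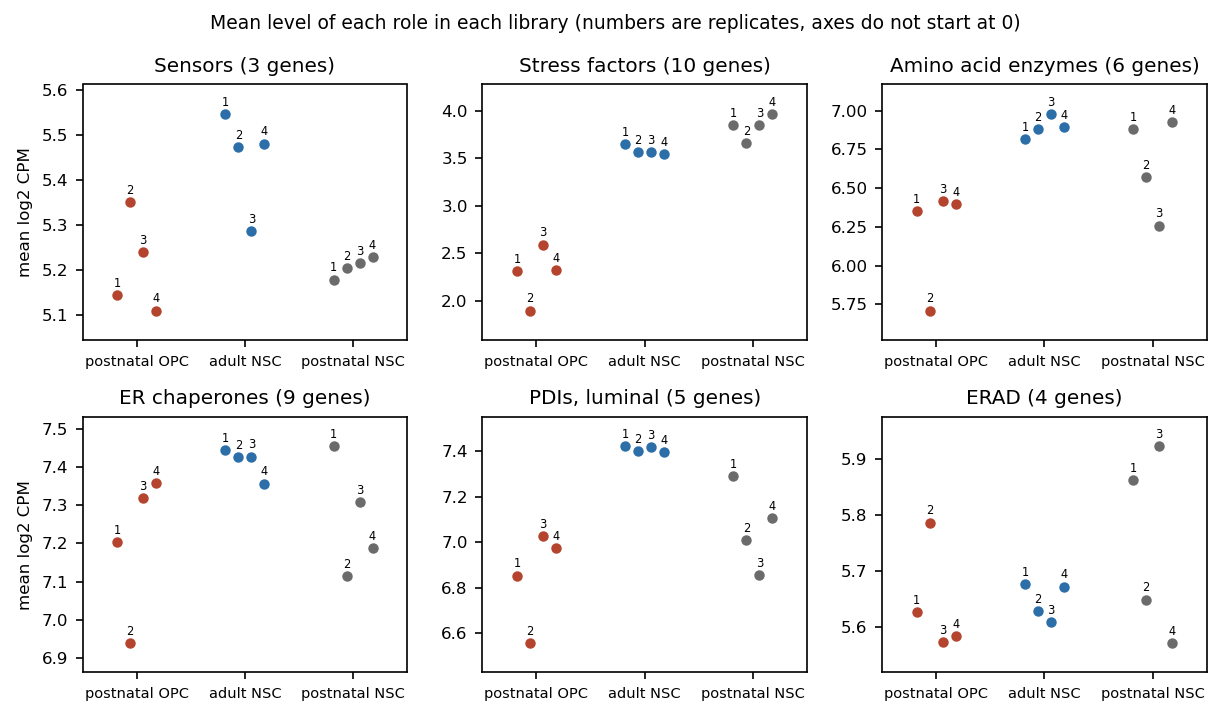
Mean log2 CPM over the genes of each role (y axis, which does not start at 0) in every library, numbered by replicate. Stress factors lay between 1.90 and 2.59 in OPC, below all stem cell libraries, whereas the libraries of the 3 groups overlapped for the degradation genes. Postnatal OPC 2 was the lowest library for stress factors, amino acid enzymes, chaperones and luminal proteins.

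ER stress response elements in promoters are the sites through which ATF6 and XBP1 are known to act, and promoter sequence was set beside the levels. The element was searched as CCAAT followed after 9 bases by CCACG, its second form as ATTGG followed after 1 base by CCACG, and the core of the amino acid response element bound by ATF4 as TGATGNAA, on both strands of the 250 bases before each RefSeq start (GRCm38.p6), and no 2 matches in these genes overlapped. Of the 37 genes 34 had a promoter entry, with none for Atf6, Hyou1 and Manf. The first form was found in 8 of the 34 (23.5%) and in 37 of 32851 promoters (0.113%). The second form was found in 1 of the 34 (2.94%) and in 10 promoters (0.0304%), and the amino acid response core in 4 of the 34 (11.8%) and in 1134 promoters (3.45%). The shares of the listed genes count genes, 34 with 36 promoters, whereas the other shares count promoters. The genes were listed as parts of the response that the ER elements serve, so their high share is not an independent result. A match describes letters and was not measured as a bound site. The sites are shown 5′ to 3′ in the direction of the searched letters, with the fixed letters of the element in capitals and 6 bases on each side, since these letters are what the 9 genes with an ER element share.
Hspa5, chr2:34772025-34772043: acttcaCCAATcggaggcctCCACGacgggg
Calr, chr8:84847075-84847093: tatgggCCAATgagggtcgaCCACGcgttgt
Hsp90b1, chr10:86705638-86705656: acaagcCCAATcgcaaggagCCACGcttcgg
Hsp90b1, chr10:86705533-86705551: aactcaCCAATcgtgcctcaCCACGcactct
Canx, chr11:50325800-50325818: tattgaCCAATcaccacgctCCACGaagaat
Pdia6, chr12:17266491-17266509: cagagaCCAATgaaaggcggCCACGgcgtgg
Dnajc3, chr14:118937827-118937845: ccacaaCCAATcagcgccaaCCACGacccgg
Creld2, chr15:88819520-88819538: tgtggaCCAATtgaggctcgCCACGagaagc
Syvn1, chr19:6046532-6046550: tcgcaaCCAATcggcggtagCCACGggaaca
Herpud1 (second form), chr8:94386377-94386387: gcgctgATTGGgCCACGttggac

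The 8 genes with the first form did not move as a block. In OPC 3 of 8 fell against postnatal NSC (Hspa5, Creld2 and Syvn1), with a median log2 fold change of -0.02, and 5 of 8 fell against adult NSC, with a median of -0.39. In adult NSC 4 of 8 rose and 1 fell against postnatal NSC, with a median of 0.22. Of the other 26 genes with a promoter entry, 12 fell in OPC against postnatal NSC and 15 against adult NSC. In adult NSC 8 of these 26 rose and 6 fell against postnatal NSC. The medians of the 26 were -0.46, -0.54 and 0.19 in the same order. Over all tested genes 22.7% fell in OPC against postnatal NSC and 24.7% against adult NSC. In adult NSC 25.2% of all tested genes rose and 27.9% fell against postnatal NSC. The promoter of Hspa5 is shown as 150 bases before its RefSeq start, plus strand, chr2:34771940-34772089, because Hspa5 fell in OPC against both groups, with the fixed letters of its element in capitals.
Hspa5: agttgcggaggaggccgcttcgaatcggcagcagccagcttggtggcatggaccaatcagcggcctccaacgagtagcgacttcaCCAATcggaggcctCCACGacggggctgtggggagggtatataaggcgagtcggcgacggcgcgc

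The amino acid response core was found before Nupr1, Asns, Chac1 and Herpud1. Of these 4 genes Nupr1 was without a count in OPC, and Asns, Chac1 and Herpud1 passed in no comparison. These 4 sites are given in the direction of TGATGNAA, with its fixed letters in capitals.
Nupr1, chr7:126625573-126625580: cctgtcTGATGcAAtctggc
Asns, chr6:7693225-7693232: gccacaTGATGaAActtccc
Chac1, chr2:119351049-119351056: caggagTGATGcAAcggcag
Herpud1, chr8:94386317-94386324: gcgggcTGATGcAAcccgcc
The 150 bases before the RefSeq start of Nupr1, on the minus strand of chr7:126625471-126625620, are given in the direction of the gene. In that direction the core reads as its reverse complement, in capitals.
Nupr1: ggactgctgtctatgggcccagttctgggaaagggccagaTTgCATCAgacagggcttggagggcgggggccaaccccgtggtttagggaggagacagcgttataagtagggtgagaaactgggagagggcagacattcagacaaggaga

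Other genes of the same pathways were counted from lists outside the 37 genes. In these lists each count of 0 by edgeR was also 0 by DESeq2, and at an unadjusted p under 0.05 it was at most 1. The shares to read these counts against are those over all tested genes: 22.7% fell and 22.4% rose in OPC against postnatal NSC, 24.7% fell and 26.3% rose in OPC against adult NSC, and 25.2% rose and 27.9% fell in adult NSC against postnatal NSC. Among 24 tested genes for amino acid transporters and other ATF4 targets, 13 fell (54.2%) and 3 rose (12.5%) in OPC against postnatal NSC (median log2 fold change -0.54), and 14 fell (58.3%) and 2 rose (8.33%) against adult NSC (median -0.69). In adult NSC 6 rose and 6 fell against postnatal NSC (25% each, near the shares over all genes; median 0.21). Gdf15, a stress-induced hormone, averaged 0.06 ± 0.05 CPM in OPC, 5.95 ± 0.95 CPM in adult NSC and 5.03 ± 1.90 CPM in postnatal NSC (SD, n = 4 each), and in OPC it fell by 6.28 ± 0.47 on the log2 scale against postnatal NSC (edgeR adjusted p = 2.82e-06). Atf3 averaged 0.19 ± 0.07 CPM in OPC, 3.45 ± 0.32 CPM in adult NSC and 71.93 ± 61.85 CPM in postnatal NSC, with a wide spread in the last. Against postnatal NSC it fell on the log2 scale by 8.60 ± 0.74 in OPC and by 4.38 ± 0.54 in adult NSC (edgeR adjusted p = 6.20e-06 and 7.07e-05). Slc7a11, the cystine transporter, averaged 8.57 ± 0.42 CPM in OPC, 16.6 ± 2.50 CPM in adult NSC and 35.7 ± 6.01 CPM in postnatal NSC. It fell 4.16-fold in OPC and 2.15-fold in adult NSC against postnatal NSC (edgeR adjusted p = 1.60e-06 and 7.83e-05). In the other direction Cebpg, a partner of ATF4, rose 1.83-fold in OPC and 2.58-fold in adult NSC, and Slc38a2, a neutral amino acid transporter, rose 1.60-fold and 2.20-fold, against postnatal NSC (edgeR adjusted p = 0.00527, 0.000314, 0.00835 and 0.000347).

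Genes of protein synthesis and ER entry were counted in 3 lists, to be read against the same shares. Of 20 aminoacyl-tRNA synthetase genes, which load amino acids onto tRNA, 12 rose (60%, against 25.2% of all tested genes) and 0 fell in adult NSC against postnatal NSC (median log2 fold change 0.32). In OPC 9 fell (45%, against 24.7%) and 0 rose against adult NSC (median -0.36), and 1 rose (5%) and 2 fell (10%) against postnatal NSC (median 0.03). Nars, for asparagine, averaged 215.5 ± 8.68 CPM in adult NSC and 131.5 ± 21.7 CPM in postnatal NSC and rose 1.64-fold (edgeR adjusted p = 0.000307). Qars, for glutamine, averaged 40.6 ± 4.41 CPM in OPC, against 87.2 ± 7.89 CPM in postnatal NSC, and fell 2.15-fold (edgeR adjusted p = 5.99e-06). Of 15 translocon and signal peptidase genes, which bring proteins into the ER, 9 rose (60%) and 0 fell in adult NSC against postnatal NSC (median 0.29). In OPC 9 fell (60%) and 0 rose against adult NSC (median -0.31), and 3 rose (20%) and 5 fell (33.3%) against postnatal NSC (median 0.07). Sec62, which assists import after translation, rose 1.56-fold in OPC against postnatal NSC (edgeR adjusted p = 0.000283), with 11.7% of its exonic bases overlapping 4933429H19Rik on the other strand. Of 12 genes of eIF2, its kinases, its exchange factor eIF2B and a phosphatase subunit, 4 rose (33.3%, against 25.2% of all tested genes) and 1 fell (8.33%) in adult NSC against postnatal NSC (median 0.18). In OPC 2 rose (16.7%) and 7 fell (58.3%) against adult NSC (median -0.30), and 1 rose (8.33%) and 2 fell (16.7%) against postnatal NSC (median -0.01). Eif2ak4, the kinase that senses amino acid shortage, fell 1.41-fold in adult NSC against postnatal NSC (edgeR adjusted p = 0.000218), the opposite direction to the PERK gene.

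The other lists of ER folding and degradation differed from each other in their counts. Of 20 other genes for ER folding, glycoprotein and redox steps, 9 fell (45%, against 22.7% of all tested genes) and 1 rose (5%) in OPC against postnatal NSC (median log2 fold change -0.21). Against adult NSC 12 fell (60%, against 24.7%) and 2 rose (10%) in OPC (median -0.33), and in adult NSC 4 rose and 4 fell against postnatal NSC (20% each; median 0.17). Hspa13, an ER-associated relative of BiP, was the gene that rose in OPC against postnatal NSC, 1.66-fold (edgeR adjusted p = 0.000973). Of 14 tested other degradation genes, 2 rose and 2 fell in OPC against each kind of stem cell (14.3% each way, below the shares over all genes; medians -0.04 and -0.04), and 5 rose (35.7%) and 3 fell (21.4%) in adult NSC against postnatal NSC (median 0.05). Os9, a lectin that delivers glycoproteins to the Sel1l complex, averaged 141.1 ± 37.9 CPM in OPC, 69.2 ± 1.76 CPM in adult NSC and 144.9 ± 41.8 CPM in postnatal NSC. It rose 2.04-fold in OPC against adult NSC and fell 2.10-fold in adult NSC against postnatal NSC (edgeR adjusted p = 0.0012 and 0.0011). Of 7 ATF6-like factors and their proteases, 4 fell in OPC against postnatal NSC (57.1%) and 3 against adult NSC (42.9%; medians -0.27 and -0.55), and 1 rose and 1 fell in adult NSC against postnatal NSC (14.3% each; median 0.11). Creb3l2 fell 2.39-fold and 2.76-fold in OPC against postnatal and adult NSC (edgeR adjusted p = 0.000412 and 0.000101).

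The remaining 3 lists cover folate enzymes and chaperones outside the ER. Of 11 folate and serine enzymes, 5 fell (45.5%, against 22.7% of all tested genes) and 1 rose (9.09%) in OPC against postnatal NSC (median log2 fold change -0.35), and 6 fell (54.5%, against 24.7%) and 1 rose (9.09%) against adult NSC (median -0.43). In adult NSC 2 rose and 2 fell against postnatal NSC (18.2% each, against 25.2% and 27.9%; median 0.40). Mthfd2l, a relative of Mthfd2, was the gene that rose in OPC, 1.74-fold against postnatal NSC and 1.32-fold against adult NSC (edgeR adjusted p = 0.000112 and 0.00804). Of 12 cytosolic heat shock genes, 7 fell (58.3%) and 1 rose (8.33%) in OPC against postnatal NSC (median -0.43), and 7 fell (58.3%) and 0 rose against adult NSC (median -0.74). In adult NSC 5 rose (41.7%) and 3 fell (25%) against postnatal NSC (median 0.31). Bag3, a co-chaperone under heat shock control, averaged 8.67 ± 4.00 CPM in OPC, 47.6 ± 4.62 CPM in adult NSC and 32.8 ± 13.0 CPM in postnatal NSC and fell 5.52-fold in OPC against adult NSC (edgeR adjusted p = 0.000142). Hspa1a and Hspa1b fell 6.50-fold and 6.70-fold in OPC against postnatal NSC (edgeR adjusted p = 0.000727 and 0.00166), but they share 66.3% and 62.3% of their stretches of 50 bases with other genes, mainly each other, and are uncertain. Of 8 mitochondrial chaperones and proteases, 2 fell in OPC against postnatal NSC (25%, near the share over all genes) and 6 against adult NSC (75%), with 0 rising in either (medians -0.24 and -0.79). In adult NSC 4 rose (50%) and 1 fell (12.5%) against postnatal NSC (median 0.35). Trap1, the mitochondrial HSP90, averaged 68.4 ± 4.96 CPM in OPC, 130.3 ± 8.71 CPM in adult NSC and 115.4 ± 15.7 CPM in postnatal NSC. It fell 1.69-fold and 1.91-fold in OPC against postnatal and adult NSC (edgeR adjusted p = 0.00011 and 1.43e-05).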

How the data were processed

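Poly(A) RNA of 12 cultures was sequenced after a stranded library preparation, per the labels. The authors deposited whole-number read counts per gene without normalization. The submitters' processing notes name GRCm38 as the build and FastQC, STAR and featureCounts 1.22.2 as tools. The annotation they counted on, their settings and how they handled strand or multi-mapped reads are not given in the sources used here. Of the 55401 identifiers, 55141 were found in GENCODE release 21 for mouse. The symbol Ddit3 is carried by 2 identifiers, of which the longer was used.

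Groups came from the sample labels. The count table was fitted as a whole with edgeR 4.0.16 (R 4.3.3, limma 3.58.1): genes were kept by filterByExpr (minimum count 10, minimum total 15), libraries were scaled by TMM factors, and quasi-likelihood tests were made in 1 fit of all 12 libraries with group as the term, with Benjamini-Hochberg adjustment across all 16135 tested genes and calls at an adjusted p under 0.05. CPM uses the TMM-scaled library sizes, and TPM uses summed exon lengths. Precision is set by the totals in the report, since counting error is larger in the shallower OPC and adult NSC libraries. Replicates differed by more than sampling noise (chi-square of 3.98 or more per degree of freedom), so none was a duplicate. The code was tested on simulated data.

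Values per library are given for members called with a log2 fold change of at least 1 in size, for 9 pathway genes whatever their result, and for Sel1l. From other lists at most 3 called genes for each direction and comparison that reached 5 CPM in the higher group were named. The members and lists were chosen with earlier results of these data known. Alternatives were other size factors, no filter, DESeq2 1.42.0, the replicate number as a block, pairwise fits, equal depth and each library left out, and, chosen after seeing the data, a fit that leaves out the pair of libraries low in G1/S genes and 1 with the Y-linked gene Ddx3y (log2 of CPM plus 0.5) as a covariate. Promoter sequences are those of RefSeq, GRCm38.p6.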

Additional observations from a re-analysis of the deposited data

Results flagged for a closer look

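In 110 sets of 4 libraries, 1 for each of the 37 genes and group with any count, 6 had a library far from the other 3 by Dixon's criterion, where chance gives about 1 in 20. Of these, 3 lay in postnatal OPC 2, 1 of the libraries with low G1/S genes: Mthfd2 at 6.65 CPM with the others at 29.4 to 31.9, Edem1 at 27.7 CPM with the others at 36.5 to 38.2, and Herpud1 at 20.3 CPM with the others at 13.8 to 14.4. In adult NSC 3, Eif2ak3 was at 114.9 CPM with the others at 132.1 to 133.2, and Psat1 was at 570.9 CPM with the others at 539.5 to 542.5. In postnatal NSC 1, Atf4 was at 266.1 CPM with the others at 177.7 to 181.6.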

How the results depend on the processing

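No called value of the 37 genes changed its sign under any of the 20 alternatives. In OPC against postnatal NSC 16 of 17 calls held under every alternative, in OPC against adult NSC 22 of 25, and in adult NSC against postnatal NSC 11 of 19. With 1 library left out in turn, the number that rose in adult NSC against postnatal NSC was 6 to 14, in place of 12, and it was 6 without postnatal NSC 2. The other counts stayed within 1.5 times their value: 15 to 17 fell in OPC against postnatal NSC and 20 to 25 against adult NSC. Over all tested genes 3167 to 4222 rose in adult NSC against postnatal NSC with 1 library left out. Of all tested genes 3184 to 4258 then fell in OPC against postnatal NSC and 3507 to 4418 against adult NSC. When the pair of libraries low in G1/S genes was left out, 17 genes fell and 1 rose in OPC against postnatal NSC, 23 fell and 3 rose in OPC against adult NSC, and 14 rose and 8 fell in adult NSC. With the level of Ddx3y as a covariate these counts were 15 and 1, 24 and 3, and 9 and 6. Over all tested genes, in the same order, the counts without the pair were 4526 and 4265, 4448 and 4531, and 4494 and 4869 of 16157. With the covariate they were 3048 and 3088, 4091 and 4395, and 3690 and 3859 of 16135. Beside libraries left out, that covariate ended the calls of Trib3 in OPC against postnatal NSC, of Mthfd2, Hsp90b1, Edem1 and Syvn1 in adult NSC against postnatal NSC, and of Syvn1 in OPC against adult NSC. Without the filter on low counts, the calls of Hsp90b1, Pdia4 and Edem1 in adult NSC were lost. Pairwise fits lost Trib3 in OPC against postnatal NSC and Syvn1 in OPC against adult NSC, and equal depth lost Trib3 in OPC against postnatal NSC; the cause was not tested. Libraries that share a replicate number did not deviate together (correlations of -0.36 to 0.33 over 12 pairs), so the number shows no pairing. With the replicate number as a block, 17 genes fell and 1 rose in OPC against postnatal NSC, 23 fell and 3 rose in OPC against adult NSC, and 13 rose and 6 fell in adult NSC. Over all tested genes the counts with the block were, in the same order, 3388 and 3423, 3859 and 3959, and 3896 and 4147 of 16135. The block ended the call of Syvn1 in adult NSC against postnatal NSC, and with it Edem1 in OPC against postnatal NSC, Dnajb11 in adult NSC against postnatal NSC and Chac1 in OPC against adult NSC passed. At these depths Nupr1, Trib3, Cebpb and Chac1 rest on few counts in OPC.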
